A study of Mus musculus with 16 samples.

Results

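The step along the mouse gut tube from the anterior section (pharynx and foregut) to the anterior-midgut section was described from 4 of the series' 16 RNA libraries. The members are the 2 libraries labelled as gut tube anterior to midgut and the 2 labelled as gut tube anterior, chosen by their titles and compared over all genes. Both sections came from mouse embryos of E8.75, for which the labels' protocol gives 13 somites. That protocol, written for gut tubes that were dissociated to cells, had heads and membranes taken off and the tube freed with enzymes on ice and needles, and does not say whether the sections were handled alike. The next sections towards the tail, midgut-posterior and posterior, and extraembryonic visceral endoderm of E7.5 (exVE), with 2 libraries each, serve as reference points. Embryonic visceral endoderm of E7.5 (emVE, 2 libraries) and the whole gut tube groups enter only the estimate of spread. The labels give neither the strain of the section embryos, nor the level of the cuts, nor the number of embryos in a library. They do not say whether 2 libraries of a group came from separate embryos, so the p-values measure only the spread between these libraries.

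At this stage the gut tube is an epithelium in which descendants of the definitive endoderm and of the visceral endoderm lie side by side. Its anterior end forms the pharynx, with the thyroid, thymus and lung buds, and the following stretch forms the stomach, liver and pancreas. Position is set by fibroblast growth factors (FGF), retinoic acid, BMP and Wnt from the neighbouring mesoderm and heart, and is held by transcription factors of the Pax, Sox, Hnf, Cdx and Hox families. Visceral endoderm, the outer layer that feeds the early embryo, and the later liver share many products, among them apolipoproteins, alpha-fetoprotein and carriers of vitamins and iron.

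The 4 libraries held 84509973 and 75413108 counts (anterior) and 75494338 and 74918912 counts (anterior-midgut). The unit of level is CPM, in which a count is divided by the TMM-scaled library total, always with replicate 1 before replicate 2; levels are not divided by gene length, so levels of different genes are not compared. The anterior-midgut libraries differed from each other. Genes of visceral endoderm and liver were higher in replicate 1 than in replicate 2, with a median log2 ratio of 1.36 over 20 apolipoprotein and lipoprotein assembly genes, and the ratios of the other such groups follow with their counts. Epithelial genes were also higher in replicate 1 (3015 against 2212 CPM summed over 24 tested genes) and genes of paraxial mesoderm in replicate 2 (361 against 246 CPM over 16 genes). In the anterior section, epithelial genes were higher in replicate 1 (summed level of 24 tested genes 3047 against 2092 CPM) and neural crest genes in replicate 2 (741 against 319 CPM over 14 genes).

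Of 17313 genes tested, 968 (5.59%) passed the threshold, a Benjamini-Hochberg adjusted p under 0.05 in edgeR's quasi-likelihood test. In the anterior-midgut section 592 genes (3.42%) were higher and 376 (2.17%) were lower. The median log2 change was 2.50 for the genes that rose, -1.80 for those that fell and 0.00704 over all genes tested. The count depends on having both libraries of each section, and was lower in each of the 4 fits that left out 1 of them. Such a fit leaves 1 library in a section and has less precision. A lower count therefore does not by itself show that the calls came from the library left out. In all 4 of these fits 150 genes passed in the same direction, 113 higher and 37 lower. The smallest adjusted p belonged to Cdx2, the homeobox gene of the future intestine. It stood at 0.685 and 0.933 CPM in the anterior libraries and at 16.1 and 15.7 CPM in the anterior-midgut ones, a log2 change of 4.30 ± 0.27 (SE; edgeR adjusted p = 4.65e-05).

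**Figure D1:**
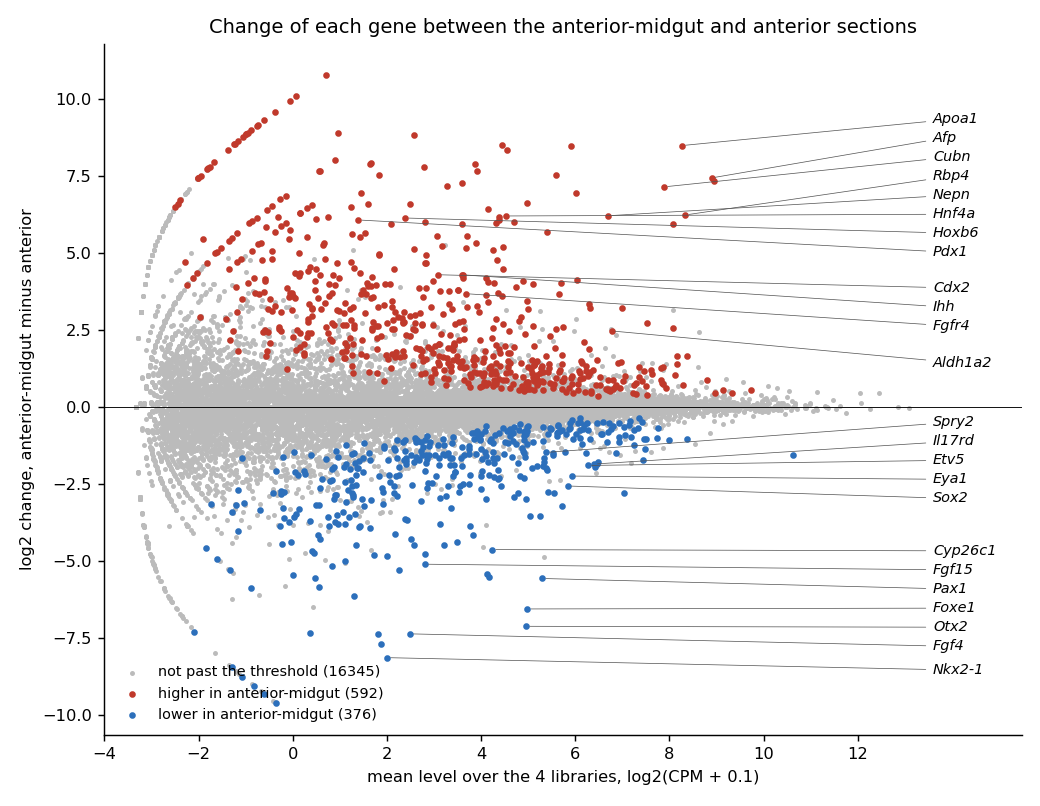
Log2 change of every gene tested (anterior-midgut minus anterior) against its mean level over the 4 libraries, as log2(CPM + 0.1). The 592 genes that rose are red, the 376 that fell blue; rows of points along the left edge are genes with few or no counts in a section, whose fitted change is no measure of size.

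Genes of the pharynx, and several of the thyroid primordium, fell in the anterior-midgut section. Of 18 pharyngeal endoderm genes listed, 16 could be tested: 11 fell, none rose, and the libraries of the 2 sections did not overlap for any of the 16, all of which were lower, as were 25.8% of all genes tested without overlap. The median log2 change of these 16 was -3.06, and 2.17% of all genes tested fell. Pax1, a paired-box regulator of the pharyngeal pouches, was at 107 and 47.1 CPM in the anterior libraries and at 1.31 and 1.93 CPM in the anterior-midgut libraries. Its log2 change was -5.57 ± 0.91 (edgeR adjusted p = 0.00617). Its relative Pax9, needed for the thymus and parathyroid, went from 101 and 39.6 to 7.14 and 5.04 CPM (log2 change -3.53 ± 0.81, edgeR adjusted p = 0.0256). Eya1, a transcription cofactor of the pouches, was at 113 and 87.7 CPM against 17.2 and 25.3 CPM (log2 change -2.24 ± 0.26, edgeR adjusted p = 9.80e-04), and it passed in every fit with 1 library left out. Tbx1, the T-box gene of the pharyngeal arches, was at 97.3 and 73.9 against 12 and 21 CPM and did not pass (edgeR adjusted p = 0.155).

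Nkx2-1, Foxe1 and Pax8, regulators of the thyroid bud, fell to low levels in the anterior-midgut section. Nkx2-1, which marks the thyroid and lung primordia, was at 10.6 and 5.03 CPM in the anterior libraries and at 0 and 0.0519 CPM, 4 counts in all, in the anterior-midgut libraries (edgeR adjusted p = 0.0114). Foxe1, a forkhead factor of thyroid migration, went from 87.6 and 37.4 to 0.858 and 0.467 CPM (log2 change -6.56 ± 1.37, edgeR adjusted p = 0.0169). Pax8 went from 44.4 and 23.8 to 0.130 and 1.45 CPM (log2 change -5.42 ± 1.19, edgeR adjusted p = 0.0211). Hhex, which the thyroid shares with the liver bud, was at 22.5 and 19.5 CPM against 49.6 and 27.3 CPM and did not pass (edgeR adjusted p = 0.150). In all, 6 of 12 thyroid and lung genes fell, Irx2 and Irx5 among them, and 1, Foxp2, rose. Over all genes tested 2.17% fell and 3.42% rose. Of the 4 fits with 1 library left out, Foxp2 passed in the 1 without anterior-midgut replicate 1. Sox2, the SRY-box factor of foregut epithelium, was at 120.1 and 75.9 CPM against 16.5 and 16.7 CPM (log2 change -2.56 ± 0.46, edgeR adjusted p = 0.00799). Sox2 is also a neural gene, and other neural genes moved with it: 5 of 15 tested neural tube genes fell, and their summed level was 424 and 426 CPM in the anterior against 136 and 176 CPM in the anterior-midgut libraries. With 1 library left out 0 to 2 of the neural tube genes fell, the 0 without anterior-midgut replicate 1. The part of such cells in the fall of Sox2 was not tested. The pharyngeal count was 4 without anterior replicate 1, and 2 or 4 when anterior-midgut replicate 1 or 2 was left out; the thyroid and lung count was 0, 0 and 3 in the same fits, and 4 without anterior replicate 2.

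**Figure D2:**
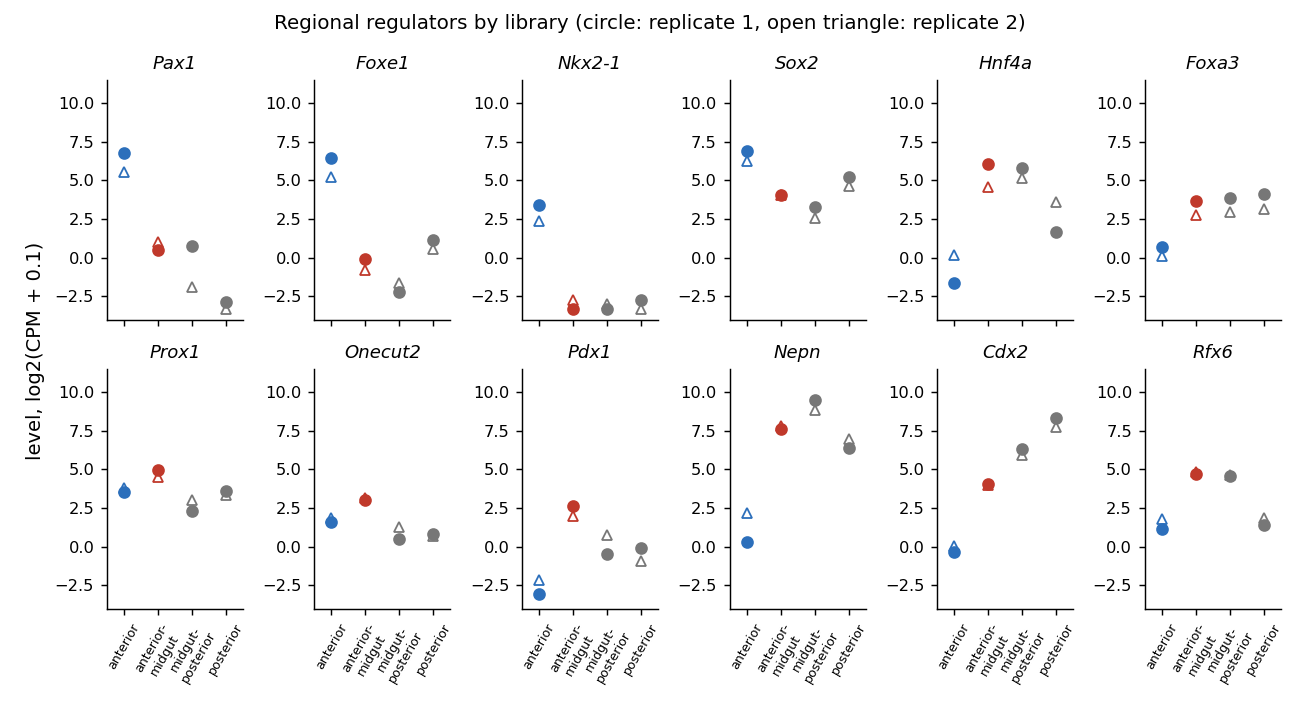
Levels of 12 regional genes in the 8 section libraries, as log2(CPM + 0.1), with replicate 1 as a filled circle and replicate 2 as an open triangle. Pax1, Foxe1, Nkx2-1 and Sox2 drop from the anterior (blue) to the anterior-midgut section (red); the other 8 are higher in both anterior-midgut than in both anterior libraries, and Prox1 and Onecut2 drop again in the midgut-posterior section.

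FGF pathway genes fell in 2 groups, the ligands and the targets and inhibitors. Only RNA was measured, so the strength of FGF signalling was not tested. The part of neural cells in these falls, and in those of the Notch genes below, was not tested either. FGF ligands bind receptor tyrosine kinases and act through ERK, which switches on the ETS factors Etv4 and Etv5 and the feedback inhibitors of the Sprouty, Spred and Dusp families. Of 13 ligands tested 7 fell and none rose, beside 2.17% of all genes tested that fell, with a median log2 change of -2.92. Leaving out anterior replicate 1 or 2 left 3 or 5 ligands that fell, and it was 1 or 3 when anterior-midgut replicate 1 or 2 was left out. Fgf4 was at 14.3 and 7.68 CPM in the anterior libraries and 0.0780 and 0.0519 CPM in the anterior-midgut ones (log2 change -7.36 ± 1.15, edgeR adjusted p = 0.00480). Fgf15 went from 17.5 and 9.39 to 0.286 and 0.493 CPM (log2 change -5.10 ± 0.67, edgeR adjusted p = 0.00151). Fgf8, the ligand of the pharyngeal arches and of the tail bud, went from 54.5 and 37.3 to 5.07 and 7.09 CPM (edgeR adjusted p = 0.0207) and stood at 113 and 45.7 CPM in the posterior section. Fgf3, Fgf13, Fgf17 and Fgf20 also fell; Fgf20 rests on 77 counts against 2, a ratio of 34.9 with a 95% counting interval of 9.34 to 293. Fgf10, the ligand of lung and pancreas mesenchyme, was at 21.6 and 29.3 against 6.28 and 13.5 CPM and did not pass (edgeR adjusted p = 0.150).

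Of the 20 FGF receptors, targets and inhibitors tested, 9 fell and 2 rose, beside 2.17% and 3.42% of all genes tested. The 9 that fell were Etv4, Etv5, Spry1, Spry2, Spry4, Spred1, Spred3, Dusp6 and Il17rd, and each of them passed in all 4 fits that left out 1 library. Etv5 was at 136 and 108 CPM in the anterior libraries and 34.2 and 31.4 CPM in the anterior-midgut ones (log2 change -1.90 ± 0.23, edgeR adjusted p = 0.00113). Spry4 went from 11.8 and 10.5 to 2.16 and 3.14 CPM (log2 change -2.08 ± 0.24, edgeR adjusted p = 0.00100). Spred3 went from 43.6 and 29.8 to 5.42 and 7.11 CPM, the largest fall of the 9 (log2 change -2.55 ± 0.30, edgeR adjusted p = 0.00103). Etv4 was lowest in the anterior-midgut section among the 4 sections, at 4.54 and 8.72 CPM against 17.6 and 20.0 CPM in the midgut-posterior and 147 and 84.4 CPM in the posterior section; the difference from the midgut-posterior section did not pass (edgeR adjusted p = 0.0767).

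Of the receptors, 2 went the other way. Fgfr4, a receptor of liver and gut endoderm, rose from 1.31 and 2.37 to 28.8 and 18.5 CPM (log2 change 3.68 ± 0.32, edgeR adjusted p = 2.07e-04). Fgfr2 rose from 58.7 and 64.7 to 119 and 124 CPM (log2 change 0.98 ± 0.18, edgeR adjusted p = 0.00840). Klb, the co-receptor through which Fgfr4 reads endocrine FGF, was chosen after its values were seen; it rose from 0.110 and 0.580 to 23.6 and 8.55 CPM (edgeR adjusted p = 0.00117). Fgfr1 did not pass. In bulk tissue, fewer cells of a type and less RNA per cell cannot be told apart, here and in the results that follow.

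**Figure D3:**
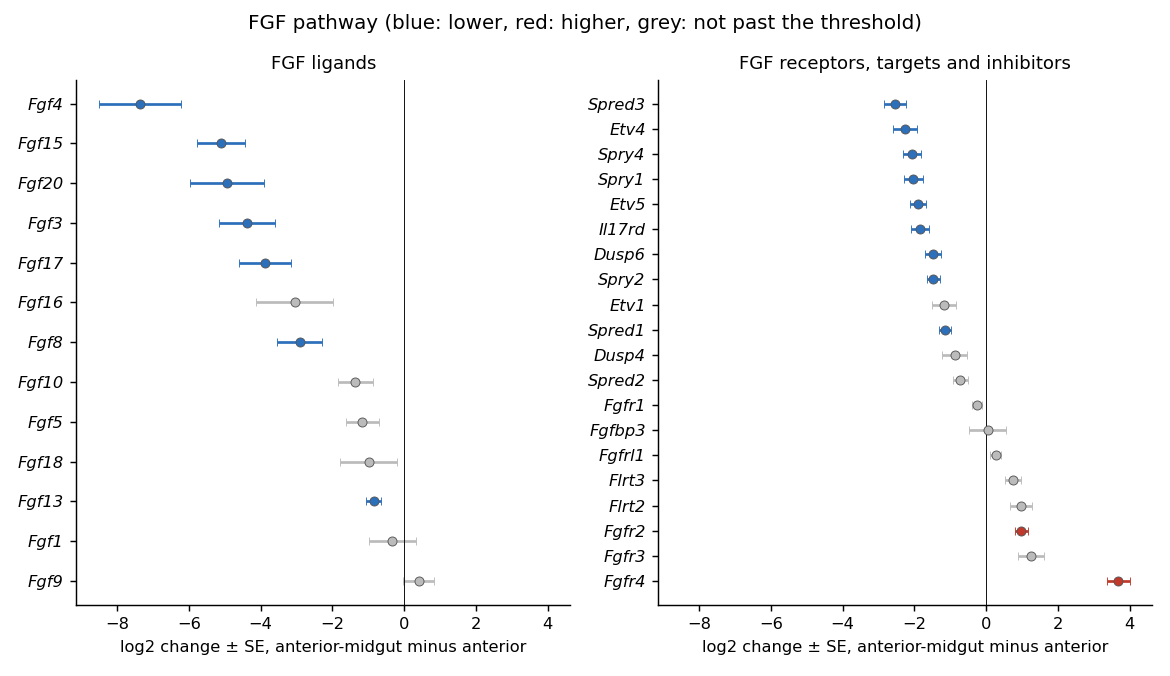
Log2 change (anterior-midgut minus anterior) with its standard error for 13 FGF ligands and for 20 receptors, targets and inhibitors. Blue points fell, red points rose and grey points did not pass the threshold; Fgfr4 and Fgfr2 lie to the right of 0 while 9 target and inhibitor genes lie to the left.

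Other signalling pathways changed in fewer members, to be set beside 3.42% of all genes tested that rose and 2.17% that fell. Retinoic acid is made by Aldh1a enzymes and broken down by Cyp26 enzymes. Aldh1a2, the main embryonic synthase and a mesodermal gene, rose from 20.2 and 46.5 to 156 and 214 CPM (log2 change 2.47 ± 0.46, edgeR adjusted p = 0.00918). Dhrs3, which is induced by retinoic acid and limits its synthesis, rose from 4.54 and 5.08 to 15.3 and 13.7 CPM (edgeR adjusted p = 0.00316). Cyp26c1 fell from 37.8 and 34.5 to 0.585 and 2.34 CPM (log2 change -4.63 ± 0.72, edgeR adjusted p = 0.00374). With Rbp4, the plasma retinol carrier, 3 of 19 retinoic acid genes rose, and with Aldh1a3 and the binding protein Crabp2, 3 fell. The number that rose was 1 without anterior replicate 1.

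Part of the Notch list fell: 7 of 17 Notch genes tested fell and none rose, beside 2.17% of all genes tested that fell. They were the ligand Jag1, the target repressors Hes1, Hes5, Hey1 and Hey2, the receptor-modifying enzyme Lfng and the feedback gene Nrarp. Hey1 was at 89.9 and 70.3 CPM against 29.3 and 29.4 CPM and passed with any 1 library left out (log2 change -1.45 ± 0.17, edgeR adjusted p = 0.00102). The Notch count was 2 without anterior replicate 1 and 1 without anterior-midgut replicate 1.

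Of 17 Hedgehog genes, 1 passed, a share near the 5.59% of all genes tested, as was the share of BMP genes below. Ihh, the ligand of the gut epithelium behind the pharynx, rose from 0.928 and 1.42 to 27.3 and 18.9 CPM (log2 change 4.30 ± 0.40, edgeR adjusted p = 2.65e-04) and was at 59.6 and 34.4 CPM in the midgut-posterior section. Shh was at 91.1 and 52.9 against 41.5 and 43.9 CPM, and neither it nor the receptor and target Ptch1 passed (edgeR adjusted p = 0.431 and 0.893). Of 34 Wnt genes tested, Rspo3, Wnt11, Dkk3 and Sfrp5 rose and Sp5 and Frzb fell; none of the 6 passed without anterior replicate 1 or without anterior-midgut replicate 1, and 1 rose and 1 fell without anterior-midgut replicate 2. Sfrp5, a secreted Wnt inhibitor of the foregut, was at 1.22 and 13.5 CPM in the anterior libraries and 114 and 74.4 CPM in the anterior-midgut ones (edgeR adjusted p = 0.0263). The Wnt target Sp5 went from 65.8 and 29.8 to 7.64 and 6.15 CPM (edgeR adjusted p = 0.0114). The ligand Wnt9b, which was not on the list, also fell and is among the largest falls named below. Of 27 BMP genes, Id4 fell and the other 26 did not pass; Id4 was lost without anterior replicate 1 and without anterior-midgut replicate 1.

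Many regulators of the liver rose in the anterior-midgut section. Of 20 hepatic transcription factors tested 10 rose and none fell, with a median log2 change of 1.44. Among all genes tested 3.42% rose and 2.17% fell. The mean level was highest in the anterior-midgut section for 11 of the 20, in the midgut-posterior for 4 and in the posterior for 5. Compared with the midgut-posterior section, 2 were past the threshold as higher in the anterior-midgut section. Hnf4a, the nuclear receptor of hepatic and visceral endoderm, was at 0.221 and 1.03 CPM in the anterior libraries and 67.1 and 24.2 CPM in the anterior-midgut ones (log2 change 6.21 ± 0.86, edgeR adjusted p = 0.00215). Foxa3, a forkhead factor of liver and gut, went from 1.51 and 0.983 to 12.7 and 6.79 CPM (log2 change 2.96 ± 0.42, edgeR adjusted p = 0.00257). Nr5a2, a nuclear receptor of liver and gut, went from 2.29 and 3.40 to 15.4 and 14.2 CPM (log2 change 2.38 ± 0.35, edgeR adjusted p = 0.00302). Gata6 and Creb3l3 rose too, and the bile acid receptor Nr1h4, with no count in the anterior and 28 counts in the anterior-midgut libraries, was at least 10.3-fold higher, taking 3 counts for the group at 0. Gata4 was at 12.2 and 52.4 against 212 and 159.5 CPM and did not pass (edgeR adjusted p = 0.0949). Hnf4a and Foxa3 were among those that passed with any 1 library left out; the count of the list was 4 without anterior replicate 1 and 6 without anterior-midgut replicate 1.

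Of 18 pancreas and duodenum genes tested, 3 rose, beside 3.42% of all genes tested. Pdx1, the homeobox gene of the pancreas and duodenum, was at 0.0221 and 0.126 CPM in the anterior libraries and 6.12 and 3.84 CPM in the anterior-midgut ones (log2 change 6.08 ± 0.71, edgeR adjusted p = 9.80e-04). In the midgut-posterior section it stood at 0.614 and 1.61 CPM, a difference that did not pass (edgeR adjusted p = 0.153). Neurog3, the switch of endocrine cells, rose from 0.110 and 0.139 to 1.44 and 1.01 CPM (edgeR adjusted p = 0.0118). Nepn, a matrix protein of midgut endoderm, rose from 1.13 and 4.44 to 191 and 221 CPM (log2 change 6.22 ± 0.60, edgeR adjusted p = 2.65e-04) and was at 717 and 454 CPM one section further back. The endocrine gene Neurod1 was the 1 member that fell, with 99 counts in the anterior and 2 in the anterior-midgut libraries, and it passed in none of the 4 fits with 1 library left out nor with a replicate block. Rfx6, a transcription factor of pancreas and gut that is on no list and was chosen after its values were seen, rose from 2.11 and 3.42 to 26 and 28.1 CPM, with both anterior-midgut libraries alike (log2 change 3.29 ± 0.32, edgeR adjusted p = 3.21e-04). Mnx1, an early pancreas gene, did not pass, and Ptf1a and Pax4 were too low to test. Of 11 stomach and oesophagus genes tested 0 rose and 2 fell, with a median log2 change of 0.268. DESeq2 called 3 of these higher and 3 lower. Of 13 general endoderm genes 3 rose and 1 fell, with a median log2 change of -0.287. Over all genes tested 3.42% rose and 2.17% fell.

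Against the midgut-posterior section the anterior-midgut section differed in 86 of 17313 genes (0.497%), 56 higher and 30 lower. Only 4 genes (0.0231%) were higher in the anterior-midgut section than in both neighbours under edgeR, and they were Prox1, Onecut2, Abtb2 and Paqr9. Prox1, a homeobox factor of the first liver and pancreas cells, was at 11.7 and 13.7 CPM in the anterior libraries, 30.8 and 22.9 CPM in the anterior-midgut and 4.84 and 7.93 CPM in the midgut-posterior libraries. Its log2 change was 1.08 ± 0.24 against the anterior (edgeR adjusted p = 0.0244) and 2.07 ± 0.25 against the midgut-posterior section (edgeR adjusted p = 0.00638). Onecut2, a regulator of liver and pancreas with Onecut1, was at 2.92 and 3.58, 7.96 and 8.71 and 1.31 and 2.35 CPM in the same order (edgeR adjusted p = 0.0156 and 0.00856). Abtb2 was at 13.5 and 15.6, 29.4 and 33.3 and 14.2 and 17 CPM, and Paqr9, a membrane receptor-like protein, at 0.751 and 1.71, 4.94 and 3.13 and 0.530 and 0.706 CPM. None of the 4 genes passed both comparisons when replicate 1 of any of the 3 sections was left out. In each of the 4 genes both anterior-midgut libraries lay above all 4 libraries of the neighbours. The genes were picked from these same libraries, so this separation adds no support.

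Products of visceral endoderm and liver were prominent among the largest rises. The 15 largest log2 changes among the genes that rose, by the naming rule, included those of Abcc2, Apoa2, Apoa1, Apoa4, Slc2a2, Fga, Muc13, S100g, Afp, Apob, Pdzk1, Lgals2, Cubn and Apom. Apoa1, the main protein of high-density lipoprotein, was at 1.77 and 1.64 CPM in the anterior libraries and 942 and 290.2 CPM in the anterior-midgut ones (log2 change 8.50 ± 1.72, edgeR adjusted p = 0.0142). Afp, the fetal serum carrier, was at 2.33 and 8.57 CPM against 1409 and 485 CPM (log2 change 7.45 ± 1.17, edgeR adjusted p = 0.00399). Cubn, the endocytic receptor that takes up vitamin B12 complexes and lipoproteins, was at 3.65 and 2.96 against 707 and 236 CPM (log2 change 7.16 ± 1.64, edgeR adjusted p = 0.0263). In each of these genes replicate 1 of the anterior-midgut section lies well above replicate 2. Both lie far above both anterior libraries, but the naming rule admits only genes whose libraries do not overlap. In exVE of E7.5 the same genes were at 3572 and 4026 CPM (Apoa1), 841 and 983 CPM (Afp) and 10056 and 10966 CPM (Cubn).

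Counted by role, 12 of 20 plasma carrier proteins rose, among them Ttr, Rbp4, Trf and Ambp, with a median log2 change of 3.53. Each count here and in the next paragraph is to be set beside 3.42% of all genes tested that rose. Serpina1a, Serpina1b and Serpina1c also rose, but they are near-identical copies, and how reads were shared among them is not known. Alb, the later main plasma protein, was at 0.0442 and 0.0252 against 0.364 and 0.169 CPM and did not pass (edgeR adjusted p = 0.169). Of 20 apolipoprotein and lipoprotein assembly genes 12 rose, with a median of 3.36, or 2.96 with members at 0 counts in a section set to their bound. Mttp, which loads lipid onto apolipoprotein B, went from 14.1 and 14 to 194 and 89 CPM (log2 change 3.34 ± 0.44, edgeR adjusted p = 0.00162). Of 18 brush border and microvillus genes 11 rose. The peptidase Dpp4, at 6.80 and 5.0 against 128 and 66.2 CPM, had the second smallest adjusted p of all genes (log2 change 4.04 ± 0.29, edgeR adjusted p = 1.07e-04). Vil1, the microvillus actin bundler, went from 2.21 and 1.58 to 62 and 22.6 CPM (edgeR adjusted p = 0.00151).

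Uptake and transport genes followed. Of 17 endocytic receptors and adaptors 7 rose, including Amn, the partner of Cubn, and the folate receptor Folr1 (0.552 and 0.580 against 58.5 and 22.9 CPM, edgeR adjusted p = 2.65e-04). Of 25 lysosomal genes 6 rose, the peptidases Ctsb, Ctsc, Ctsh, Ctsl and Lgmn and the membrane protein Lamp1, and 24 of the 25 were higher in both anterior-midgut than in both anterior libraries, against 29.7% of all genes tested. Of 16 solute carriers 8 rose, with Slc2a2, the glucose transporter of liver and yolk sac, at 0.177 and 0.101 against 69.7 and 23.4 CPM (edgeR adjusted p = 0.00934). No member of these 6 lists fell, and none passed between the anterior-midgut and midgut-posterior sections. The median log2 change, anterior-midgut minus midgut-posterior, was 0.421 for the carrier proteins, 0.043 for the apolipoprotein list and -0.036 for the brush border. It was 0.065 for the endocytic list, 0.008 for the lysosomal list and -0.116 for the solute carriers.

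Fewer members of these groups passed when anterior-midgut replicate 1 or either anterior library was left out. Such a fit leaves 1 library in a section and has less precision. A lost call therefore does not by itself show that the change came from the library left out. The median log2 ratio of anterior-midgut replicate 1 to replicate 2 was 1.36 for the apolipoprotein list, 1.27 for the solute carriers, 0.918 for the brush border, 0.825 for the carrier proteins, 0.697 for the endocytic list, 0.465 for the lysosomal list and 0.411 for the hepatic transcription factors. It was -0.251 for Hox groups 5 to 8 and -0.00102 over all genes tested. Without anterior-midgut replicate 1 the number that rose was 2 of the apolipoprotein list, 5 of the carrier proteins, 6 of the brush border, 3 of the solute carriers, 1 of the endocytic and 1 of the lysosomal list. Without anterior replicate 1 it was 1, 3, 7, 1, 2 and 1 in the same order, and without anterior replicate 2 it was 3, 11, 7, 2, 1 and 1. Rbp4, Serpina1b, Ambp, Mttp, Folr1, Ctsh, Vil1, Pdzk1, Cdhr5, Dpp4, Enpep and Slc39a4 passed in all 4 fits.

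The 592 genes that rose differed in how well the anterior-midgut libraries matched, and this went with their level in E7.5 exVE. For 382 of them (64.5%) the exVE mean was above the anterior-midgut mean, against 44.7% of all genes tested and 33.0% of the genes that fell. In those 382 the median log2 ratio of anterior-midgut replicate 1 to replicate 2 was 0.90, and in the other 210 it was 0.14. More than a 2-fold excess in replicate 1 was seen in 168 of the 382 (44.0%), 20 of the 210 (9.52%) and 574 of all genes (3.32%). The midgut-posterior libraries had the same order, with median log2 ratios of replicate 1 to 2 of 0.42 and 0.01. The split by exVE level was made after the values were seen, and what made the libraries differ was not tested.

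**Figure D4:**
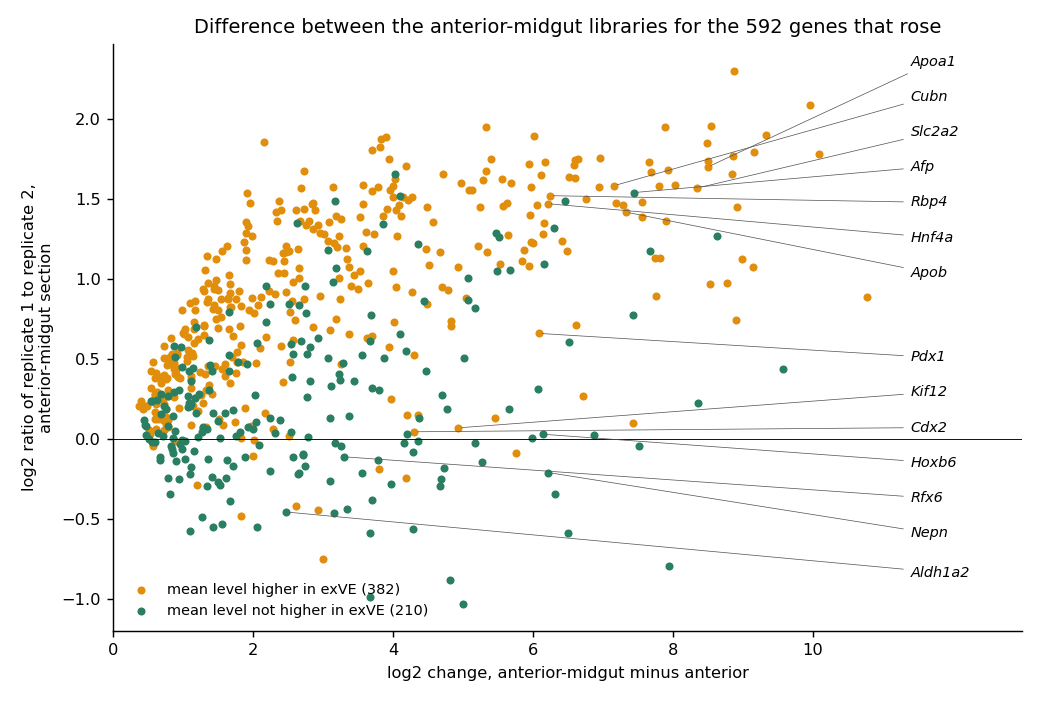
Log2 ratio of anterior-midgut replicate 1 to replicate 2 (CPM + 0.1) against the log2 change from the anterior section, for the 592 genes that rose. Genes with a higher mean in exVE of E7.5 (orange, 382) lie mostly above 0, with medians of 0.90 and 0.14 for the 2 sets; Cdx2, Hoxb6, Kif12 and Rfx6 lie close to 0.

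Hnf4a rose and passed with any 1 library left out, so the 250 bases before each start site were read from RefSeq's promoter table (GRCm38.p6) and searched on both strands for AAAGTCCA, the core of the sites that HNF4 binds. The table held 438 of the genes that rose, 281 of those that fell and 12720 of the genes tested. These letters stood before 9 of the 438 (2.05%), 3 of the 281 (1.07%) and 151 of the 12720 (1.19%), and before 322 of all 27025 genes in the table (1.19%). The motif and its spelling were chosen after the values were seen, and a match is not a site of binding. The windows are shown because each pairs the letters with a gene that rose, with 20 bases on either side where the 250 bases allow. Capitals mark the match on the gene's strand, which in Aadat, Apoa2, Me1, Muc13 and Sec16b is the motif read from the opposite strand.
Aadat, chr8:60506032-60506079, plus strand: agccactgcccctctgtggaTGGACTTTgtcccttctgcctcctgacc
Apoa2, chr1:171221374-171221421, plus strand: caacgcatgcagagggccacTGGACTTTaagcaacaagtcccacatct
H2-Q2, chr17:35342263-35342306, plus strand: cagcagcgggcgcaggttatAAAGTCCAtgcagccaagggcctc
Me1, chr9:86696112-86696159, minus strand: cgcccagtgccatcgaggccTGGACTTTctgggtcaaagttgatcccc
Muc13, chr16:33794283-33794330, plus strand: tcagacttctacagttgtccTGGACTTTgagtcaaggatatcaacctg
Nostrin, chr2:69135706-69135753, plus strand: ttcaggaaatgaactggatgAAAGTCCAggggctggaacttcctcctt
Pla2g12b, chr10:59403613-59403660, plus strand: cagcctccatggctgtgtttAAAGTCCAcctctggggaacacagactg
Sec16b, chr1:157526116-157526163, plus strand: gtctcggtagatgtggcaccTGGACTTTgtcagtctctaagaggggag
Timd2, chr11:46707105-46707139, minus strand: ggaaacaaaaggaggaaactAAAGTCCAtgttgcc

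Of these 9 genes Apoa2 and Muc13 were among the 15 largest rises, and the other 7 were chosen after their values were seen. Apoa2, a protein of high-density lipoprotein, was at 0.155 and 0.0756 CPM in the anterior libraries and 66.2 and 19.8 CPM in the anterior-midgut ones (log2 change 8.50 ± 1.86, edgeR adjusted p = 0.0211). Muc13, a mucin of epithelial surfaces, went from 0.0884 and 0.0252 to 20.3 and 6.72 CPM (log2 change 7.81 ± 1.40, edgeR adjusted p = 0.00811). Pla2g12b, a phospholipase-like protein of lipoprotein secretion, went from 0.585 and 0.315 to 25.4 and 9.23 CPM (log2 change 5.25 ± 0.86, edgeR adjusted p = 0.00510). In all 9 genes both anterior-midgut libraries lay above both anterior libraries and replicate 1 lay above replicate 2, and none passed in all 4 fits with 1 library left out. The 9 were drawn from genes that rose, which makes such separation likely, and 29.7% of all genes tested were higher without overlap. The rises ranged from Me1, malic enzyme, at 7.81 and 9.58 against 22.1 and 14.2 CPM (log2 change 1.06 ± 0.26), to that of Apoa2. H2-Q2 belongs to a family of near-identical genes, and how reads were shared among them is not known.

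The same 250 bases were searched for other spellings. For HNF4 they were CAAAGTCCA, which contains the letters above, TGACCTTTG, and GGACTTTG with any base and CC after it. These 3 stood before 3, 4 and 2 of the 438 genes that rose (0.685%, 0.913% and 0.457%). The shares were 0.712%, 0.712% and 0 of the genes that fell, and 0.44%, 0.385% and 0.189% of those tested. Over all genes in RefSeq's promoter table they were 0.451%, 0.485% and 0.148%. For the forkhead factors TGTTTAC was found before 5.25% and TGTTTGC before 5.71% of the genes that rose, against 2.80% and 4.21% of those tested. These forkhead shares were 3.2% and 3.2% among the genes that fell, and 3.54% and 4.93% over all genes in RefSeq's promoter table. The GATA letters AGATAAG stood before 4.57% against 2.52%, the CDX letters TTTATNG before 10.0% against 8.03%, and TTTATGG and TTTATTG, which are cases of it, before 2.97% and 3.20% against 2.13% and 2.99%. Over all genes in RefSeq's promoter table the 3 CDX shares were 11.3%, 2.83% and 4.89%. Among the genes that fell they were 8.54%, 2.85% and 1.78%. The GATA share was 2.85% of the genes that fell and 3.17% over all genes in RefSeq's promoter table. The E-box variant TCACCTGA stood before 2.28% against 1.13%, with 0.712% of the genes that fell and 1.2% over all genes in RefSeq's promoter table. The ETS letters CCGGAAGT stood before 1.37% of the genes that rose and 1.07% of those that fell, against 5.55% of those tested. ACCGGAAGT, which contains them, stood before 0.457% and 0 against 1.58%. Over all genes in RefSeq's promoter table the ETS shares were 3.23% and 0.892%.

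Hox genes of the low and middle paralogue groups rose in the anterior-midgut section. Hox genes are expressed in the order of their clusters, so that low paralogue groups start further forward than high ones. Of groups 1 to 4, 6 of 12 genes rose; of groups 5 to 8, 9 of 11 rose; of groups 9 to 13, none of 14 tested passed in edgeR, with 2 at an unadjusted p under 0.05 and 1 higher in DESeq2, with no filter or with only the 4 sections. The median log2 changes were 1.84, 3.80 and 0.37, and 3.42% of all genes tested rose. Hoxb6 was at 0.110 and 0.176 CPM in the anterior libraries and 10.3 and 10.1 CPM in the anterior-midgut ones (log2 change 6.14 ± 0.47, edgeR adjusted p = 1.11e-04). Hoxa5 went from 0.608 and 1.92 to 23.4 and 22.9 CPM (log2 change 4.21 ± 0.50, edgeR adjusted p = 0.00103). Hoxc8 went from 0.0884 and 0.126 to 5.82 and 5.11 CPM (log2 change 5.66 ± 0.50, edgeR adjusted p = 3.86e-04).

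Of groups 5 to 8, 4 genes were higher in the midgut-posterior than in the anterior-midgut section (0.173% of all genes tested were), and of groups 1 to 4 none passed between these sections. Hoxc8 was at 32.8 and 43.9 CPM in the midgut-posterior section, above the anterior-midgut section (edgeR adjusted p = 0.0148). Hoxb7 and Hoxc6 were likewise past the threshold at both steps, as was Cdx2, at 80.1 and 59.9 CPM in the midgut-posterior section (edgeR adjusted p = 0.00525). Hoxa7 did not pass at the first step (0.110 and 0.429 against 0.195 and 1.23 CPM) and did at the next, where it was at 34.2 and 33.4 CPM (edgeR adjusted p = 0.00525). Hoxb1, an early retinoic acid target, was highest in the anterior-midgut section of the 4, at 71.5 and 70.9 CPM against 29.1 and 32.6 CPM in front (edgeR adjusted p = 0.0321) and 32.6 and 55.8 CPM behind (edgeR adjusted p = 0.589). Hox genes lie close together with antisense transcripts, and whether the counts kept strand is not given. Hoxb4, Hoxc4, Hoxa5, Hoxb6, Hoxc6, Hoxb7 and Hoxc8 passed with any 1 library left out; for groups 1 to 4 the count was 3 without anterior replicate 1, and for groups 5 to 8 it was 6 without anterior replicate 1.

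**Figure D5:**
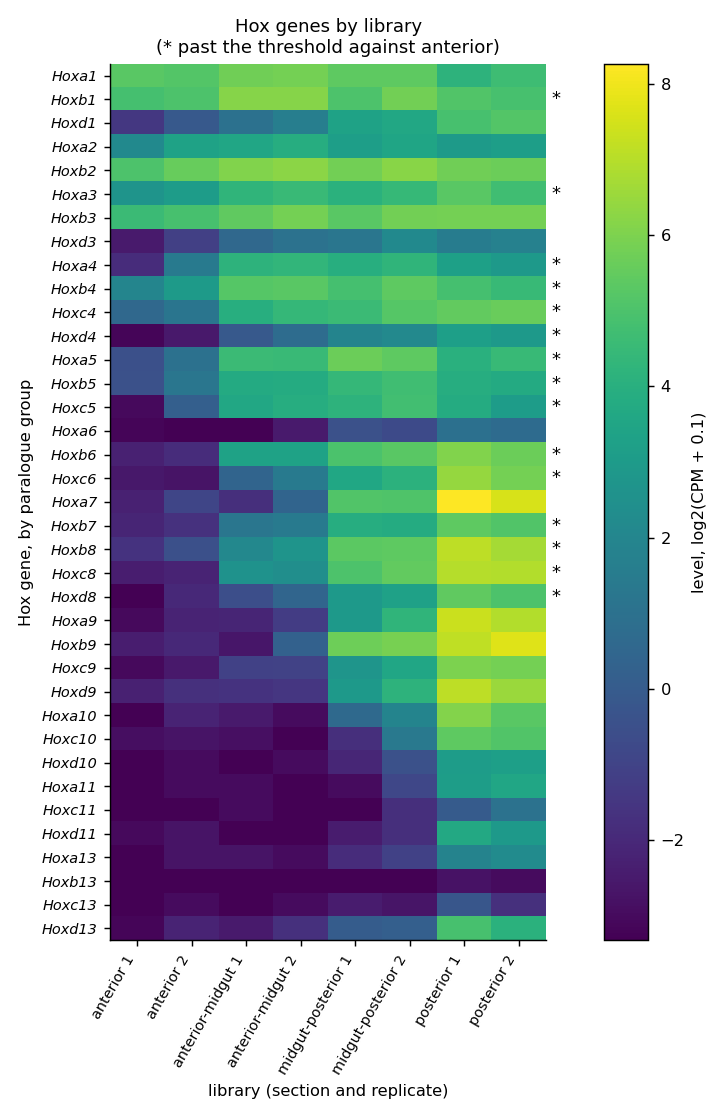
Levels of the Hox genes tested, as log2(CPM + 0.1), with genes in rows by paralogue group and the 8 section libraries in columns. Stars mark the 15 genes past the threshold between the anterior and anterior-midgut sections, all of groups 1 to 8; groups 9 to 13 are bright only towards the posterior section.

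In all, 15 of 17313 genes passed at both steps, into the anterior-midgut section and out of it towards the tail. Both comparisons use the same anterior-midgut libraries, which favours genes that look highest or lowest there. The overlap was not tested. At the second step the 86 genes past the threshold became 53 with a replicate block and 437 with DESeq2, so membership depends on the fit. Besides the 4 that were highest in the anterior-midgut section, 3 were lowest there: Cxcr4, Pax2 and Fgf17. Cxcr4, the chemokine receptor of definitive endoderm, was at 21.4 and 13.3 CPM in the anterior libraries, 3.52 and 3.76 CPM in the anterior-midgut and 10.9 and 8.23 CPM in the midgut-posterior libraries (edgeR adjusted p = 0.00103 and 0.0452). Pax2, a gene of the nephric line and of the pharynx, was at 8.18 and 7.0, 0.754 and 1.44 and 5.44 and 4.50 CPM (edgeR adjusted p = 0.00344 and 0.0495). Cdx2, Hoxb7, Hoxc6, Hoxc8, Fabp1, Rgn and Peli3 rose at both steps and Npnt fell at both; Fabp1, Rgn, Peli3 and Npnt were chosen after their values were seen. Fabp1, the fatty acid carrier of liver and intestine, was at 0.0331 and 0.0252, 1.62 and 1.74 and 13 and 7.42 CPM (edgeR adjusted p = 4.83e-04 and 0.0223). Npnt, a matrix ligand of integrin, was at 188 and 161, 86 and 100.1 and 41.9 and 49.8 CPM (edgeR adjusted p = 0.0168 and 0.0436).

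Markers of other tissues were measured beside those of the gut. Cardiac genes were detected in both sections: none of 21 passed between the sections in edgeR (5.59% of all genes did), with 4 at an unadjusted p under 0.05 and 1 higher in DESeq2. With only the 2 groups compared in the edgeR fit 6 were higher and 2 lower, with only the 4 sections 1 was higher, and without anterior replicate 2 also 1. The summed level of the list was 945 and 1563 CPM in the anterior libraries and 2488 and 2062 CPM in the anterior-midgut libraries. Myh6, a heart myosin, was at 82.7 and 184 and 395 and 308 CPM in these sections and at 3.08 and 0.913 CPM in the midgut-posterior section. Against the midgut-posterior section 8 of the 21 were higher in the anterior-midgut section, beside 0.323% of all genes. Prox1, which heart muscle can also express, and Onecut2 were thus higher in the section with the higher cardiac level, and the part of heart tissue in that difference was not tested. Splanchnic and septum transversum mesoderm, which surrounds the liver bud, gave 2 genes of 20 that rose, and none without anterior replicate 1 or without anterior-midgut replicate 1. Hlx was at 3.11 and 9.69 against 57.2 and 58.2 CPM (edgeR adjusted p = 0.0187) and the mesothelial gene Upk3b at 0.287 and 1.51 against 15.3 and 10.8 CPM (edgeR adjusted p = 0.0125).

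A few neural crest and surface ectoderm genes fell, beside 2.17% of all genes tested. The 15 largest falls by the naming rule included those of Fgf4, Otx2, Foxe1, Pax1, Pax8, Klhl14, Fgf15, Ctxn3, Cyp26c1, Emx1, Wnt9b, Fgf3, Dmrt3 and Foxi3, and Klhl14, Fgf15 and Cyp26c1 of these passed with any 1 library left out. Klhl14 was at 11.3 and 6.92 against 0.182 and 0.286 CPM (log2 change -5.27 ± 0.68, edgeR adjusted p = 0.00151), and Emx1, a homeobox gene of the forebrain, at 13.8 and 8.56 against 0.520 and 0.467 CPM (edgeR adjusted p = 0.0136). Of 14 neural crest genes Tfap2a, Erbb3 and Ngfr fell, and of 12 surface ectoderm genes Tfap2a, Trp63 and Dlx5 fell. With 1 library left out 0 to 2 of the neural crest list and 1 or 2 of the surface ectoderm list fell, the 0 without anterior-midgut replicate 1. Otx2, a regulator of the most anterior endoderm and of the forebrain, was at 79.6 and 43.6 CPM against 0.208 and 0.675 CPM (log2 change -7.12 ± 1.38, edgeR adjusted p = 0.0114). Primitive blood genes had a summed level of 1124 and 1129 CPM in the anterior libraries and 409 and 527 CPM in the anterior-midgut libraries, and 0 of 16 passed in edgeR, while 8 had an unadjusted p under 0.05 and 6 were lower in DESeq2. In edgeR 8 were lower with only the groups compared in the fit, 5 with only the 4 sections, 1 with a replicate block and 1 with no filter. Of 17 endothelial genes 0 passed in edgeR or DESeq2, with 1 at an unadjusted p under 0.05, and 2 were lower in edgeR with only the groups compared in the fit. Among 24 epithelial genes Krt8 rose and Grhl2 fell, and neither passed without anterior replicate 1 or without anterior-midgut replicate 1; Krt8 also failed without anterior replicate 2 and with a replicate block. Cdh1 and Epcam, which define the epithelium, did not pass, at 341 and 218 against 208 and 165 CPM for Epcam. Beside the 5.59% of all genes tested that passed, the cell cycle count that follows does not stand out. Of 21 cell cycle genes 1, the inhibitor Cdkn1a, rose, from 5.45 and 5.85 to 31.9 and 19.2 CPM (edgeR adjusted p = 0.00319), though not past the threshold without anterior replicate 1, and of 18 immediate early and heat shock genes none passed in edgeR or DESeq2, with 2 at an unadjusted p under 0.05; 1 was higher in edgeR with only the groups compared or only the 4 sections in the fit.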

How the data were processed

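The 16 polyadenylated RNA libraries fall into 8 groups of 2, read from the sample titles. The values the authors deposited are raw counts for each gene symbol, without normalization. STAR is named in the submitters' processing notes; its version, the genome build, annotation, counting program and strand setting were not given in the sources used here. Each file had 26795 entries; 32 repeated symbols were summed, which left 26761, of which 25562 matched a mouse gene name table.

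All 16 libraries entered 1 fit in edgeR 4.0.16 (R 4.3.3) with TMM scaling, 1 coefficient per group and a filter (filterByExpr, minimum count 10, minimum total 15) that kept 17313 genes and at least 99.99% of each library's counts. Quasi-likelihood tests were two-sided, with Benjamini-Hochberg adjustment over all genes and a threshold of 0.05; the 2 comparisons share the anterior-midgut libraries. SE is the log2 change divided by the root of F. Libraries held 57061536 to 84509973 counts, and counting intervals and floors cover counting error only. The 2 libraries of each section differed far beyond sampling noise (chi-square per gene 47.9 and 62.6), so none was merged. The steps were tested on simulated data.

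The members, the 37 lists of genes and the naming rule were chosen with earlier results of these data known. Any list member could be named; beyond them, the 15 largest changes in each direction among genes past the threshold, with libraries that do not overlap and a higher group whose mean log2 CPM reached 3, and the genes higher than both neighbours. Predicted genes were left out, and some genes and promoter motifs that were examined are not reported here. Promoter sequences came from RefSeq's table (GRCm38.p6), in which 12720 of the genes tested were found by symbol. Alternatives were RLE size factors, no filter, a replicate block, a fit on fewer groups, leaving out single libraries, and DESeq2 1.42.0. When 1 library of a group remains, it is taken to vary as the others do.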

Additional observations from a re-analysis of the deposited data

How the results depend on the processing

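Between the anterior-midgut and anterior sections, the 968 genes past the threshold (592 higher, 376 lower) became 1708 (973 higher, 735 lower) with DESeq2, and the lower ones became 668 with only the groups compared in the fit. Leaving out 1 library gave 201 to 694 genes, 134 to 554 higher and 39 to 225 lower. With RLE size factors, no filter, a replicate block or only the 4 sections the total was 962, 1065, 832 and 1099. Of the 968 genes, 967 also passed in DESeq2 in the same direction.

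Against the midgut-posterior section, the 86 genes became 152 with no filter, 53 with a replicate block, 251 with only the groups compared, 177 with only the 4 sections, 437 with DESeq2 and 6 to 17 with 1 library left out; 1241 genes had an unadjusted p under 0.05. The 4 genes higher than both neighbours became 9, 30, 17 and 49 under no filter, only the groups compared, only the 4 sections and DESeq2, 3 with the replicate block, and 0 to 4 with 1 library left out.

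Of 181 named genes past the threshold, 51 passed in all 4 fits with 1 of the compared libraries left out and 180 in DESeq2; no named gene passed in the opposite direction under the alternatives run. Labels do not say what a shared replicate number marks. Deviations from the group means of the libraries numbered 1 had a correlation of 0.151 across genes, and with 1 such value the pairing cannot be judged. The causes of these shifts were not tested. Depth and precision are limited by 2 libraries a group and, for genes with few counts, by counting error.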
